A study of Drosophila melanogaster with 3 samples.

Results

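Lhr (Lethal hybrid rescue) was mapped by ChIP-seq in Drosophila melanogaster embryos, and the peaks described here are those whose summit lay in pericentric sequence, away from start sites and outside annotated transposons. They were taken from the combined relaxed peak list on dm6 (Release 6), a permissive list of peaks and background from which the final list was later selected. A peak was a member when its summit lay beyond 22 Mb on 2L or X, beyond 23 Mb on 3L, below 5.4 Mb on 2R or below 4.6 Mb on 3R. Its summit also had to be more than 500 bp from any annotated start site and inside no annotated transposon record. Of 20761 relaxed peaks, 2468 were members, which is 11.9% of the list.

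The study used whole embryos of both sexes, 0 to 14 h old, from a transgenic line that stably carries Lhr with GFP fused to the C-terminus. Sonication gave chromatin fragments of 200 to 800 bp, from which anti-GFP antibody precipitated the fusion. There were 3 libraries, biological replicates of this 1 group, so no other genotype, stage or treatment was compared. A p-value over libraries reflects only how the direction and size of a difference agreed among these samples, and cannot fall below 0.25. Signals from all cell types of the embryo are averaged, and the labels used here do not name the promoter that drives the fusion or say whether the endogenous Lhr gene was present.

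Pericentric sequence flanks the centromeres and is packaged largely as heterochromatin, marked by methylated histone H3 lysine 9 and by heterochromatin protein 1 (HP1a). It is rich in transposons and satellite repeats, yet it holds working genes, many with very long introns. Lhr is known as a chromatin protein that associates with HP1a and with Hmr (Hybrid male rescue), and both are known for their part in the lethality of hybrids between Drosophila species. The DNA replication-related element (DRE), a palindrome with the word TATCGATA, is bound by DREF, and its core CGATA is also recognised by the boundary protein BEAF-32, both in Drosophila.

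Sequences that illustrate the results are shown first. They are from some of the strongest members, from members in Snap25 with the DRE palindrome and from members whose sequence recurs at other members. Members are numbered m1, m2 and so on by the authors' signal in the combined list. The sequences shown hold CGATA more often than members in general. Of the 106 members of the final list, 61 held neither CGATA nor its complement within 100 bp of the summit. Among these were m4 and m8, which are strong but not shown. All sequences are from the Release 6 reference, 5′ to 3′, and capitals mark the words TATCGATA, CGATA and its complement TATCG on the strand shown.
m1 at chr3R:3374276-3374396, plus strand, the strongest member, in intergenic sequence: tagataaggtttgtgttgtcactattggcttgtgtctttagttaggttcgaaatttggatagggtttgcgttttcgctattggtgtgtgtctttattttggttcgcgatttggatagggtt
m9 at chr3L:24536053-24536173, plus strand, the strongest on 3L, in intergenic sequence: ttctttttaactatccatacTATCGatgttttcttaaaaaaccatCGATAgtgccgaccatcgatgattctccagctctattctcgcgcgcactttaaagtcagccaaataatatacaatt
m28 at chr3L:24196246-24196366, plus strand, in an intron of Snap25: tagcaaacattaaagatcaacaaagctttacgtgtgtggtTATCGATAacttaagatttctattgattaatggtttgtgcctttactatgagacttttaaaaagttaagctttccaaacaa
m39 at chr3L:24293445-24293565, plus strand, in an intron of Snap25: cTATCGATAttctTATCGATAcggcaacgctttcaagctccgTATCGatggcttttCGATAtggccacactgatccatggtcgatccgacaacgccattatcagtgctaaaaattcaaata

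The next 3 sequences belong to members of different loci that share sequence and all carry the DRE palindrome.
m10 at chr3L:24231496-24231627, plus strand, in an intron of Snap25: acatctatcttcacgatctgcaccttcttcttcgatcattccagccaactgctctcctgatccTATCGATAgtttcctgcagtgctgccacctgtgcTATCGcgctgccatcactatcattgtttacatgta
m11 at chr3R:3734131-3734244, plus strand, in intergenic sequence: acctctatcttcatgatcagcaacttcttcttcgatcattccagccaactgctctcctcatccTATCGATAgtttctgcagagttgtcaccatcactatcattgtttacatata
m50 at chr3L:24205325-24205449, plus strand, in another intron position of Snap25: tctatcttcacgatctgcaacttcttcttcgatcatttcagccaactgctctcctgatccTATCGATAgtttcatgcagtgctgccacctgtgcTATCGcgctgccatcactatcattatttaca

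The following members, in introns of Pzl and Myo81F on 3R and between genes on 3L, belong to the largest set with shared sequence among the 106 members of the final, stricter list. The set's other member, m29, is not shown. Each was aligned to m7 and is shown on the strand that matches it.
m7 at chr3R:3118067-3118246, plus strand, intron of Pzl: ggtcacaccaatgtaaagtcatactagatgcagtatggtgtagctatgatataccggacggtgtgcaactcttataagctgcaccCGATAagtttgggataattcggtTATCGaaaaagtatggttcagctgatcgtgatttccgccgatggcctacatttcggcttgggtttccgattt
m82 at chr3R:727358-727516, plus strand, intron of Myo81F: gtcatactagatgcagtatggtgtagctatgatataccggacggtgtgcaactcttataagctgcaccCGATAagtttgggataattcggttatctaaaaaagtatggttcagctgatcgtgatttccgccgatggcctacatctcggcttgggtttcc
m37 at chr3R:864561-864639, minus strand, intron of Myo81F: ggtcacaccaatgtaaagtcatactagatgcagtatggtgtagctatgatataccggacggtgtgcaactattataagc
m76 at chr3R:2134363-2134542, minus strand, intron of Myo81F: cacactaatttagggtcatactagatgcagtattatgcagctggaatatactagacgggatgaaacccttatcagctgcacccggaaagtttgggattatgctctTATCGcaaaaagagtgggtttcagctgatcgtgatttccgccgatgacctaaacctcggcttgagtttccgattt
m100 at chr3L:24840365-24840455, plus strand, intergenic: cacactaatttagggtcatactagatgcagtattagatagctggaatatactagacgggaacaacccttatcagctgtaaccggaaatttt

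Members were many but mostly weak. The final list, selected by the irreproducible discovery rate (IDR), held 106 members, 4.29% of them (95% exact Clopper-Pearson interval 3.53 to 5.17, counting error only). The background was higher: 25% of all relaxed peaks were in the IDR list. Among nonpromoter peaks outside both the borders and the transposons, called arm peaks from here on, 1713 of 10278 were in it, or 16.7%. Of the 503 pericentric peaks inside transposons, 17 were in it. By arm, IDR members numbered 6 of 277 for 2L, 45 of 939 for 2R, 31 of 880 for 3L, 19 of 337 for 3R and 5 of 35 for X. The median member stood at the 33.9th percentile of signal in the combined list, against 42.0 for the median arm peak, 36.6 for pericentric peaks inside transposons and 67.6 for pericentric promoter peaks. In the libraries' own lists, with members found by the same rule, the median percentile was 40.2, 36.2 and 38.7 in replicates 1, 2 and 3, below the 41.6, 41.8 and 40.5 of arm peaks in each.

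Signal is the authors' enrichment value and ranks peaks within a list, so each strong member is given by its rank in the combined list and in replicates 1, 2 and 3. The strongest, m1 (chr3R:3374105-3374580), ranked 8 in the combined list and 5, 24 and 6 in the libraries. It lay between genes, 51526 bp from the nearest coding start, that of spok, which encodes a cytochrome P450 of ecdysteroid synthesis. No near copy of its window was found elsewhere in the reference, and none of its bases was soft-masked as repeat. m2 and m6 were summits of a shared interval (chr2R:1243145-1243992), 20610 and 20341 bp from the start of CG40191. m2 ranked 34 in the combined list and 33, 35 and 39 in the libraries, the tightest agreement among the 10 strongest members, while m6 ranked 163 and then 116, 125 and 306.

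m3 (chr2R:4012581-4013062) lay 1314 bp from a start of Haspin, which encodes a histone H3 kinase of mitosis. It ranked 43 in the combined list and 36, 91 and 28 in the libraries, and the sequence within 100 bp of its summit held the DRE palindrome. m9 (chr3L:24535925-24536322) lay 1123 bp from a start of mRpS5, a protein of the mitochondrial ribosome, and ranked 568 and then 435, 961 and 474. Its window of 100 bp to each side of the summit too held the palindrome, outside the shown stretch, with 4 occurrences of CGATA or TATCG in all. These distances place both outside the promoter limit of 500 bp, but within 2 kb of a start, as 24.5% of IDR members were.

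The strongest members inside genes were in very long introns. m4 (chr3R:2411820-2412190) lay in a 106-kb intron of Myo81F, an unconventional myosin gene spanning 1966 kb, and ranked 128 in the combined list and 103, 306 and 118 in the libraries. m5 (chr2R:2079652-2080024) lay in a 65.4-kb intron of CG17684 and ranked 161, then 121, 287 and 172. m7 (chr3R:3117940-3118315) lay in a 107-kb intron of Pzl, a gene related to the mechanosensitive channel Piezo, and ranked 351, then 214, 833 and 370. m10 (chr3L:24231417-24231711) lay in a 43.7-kb intron of Snap25, which encodes a SNARE protein of synaptic vesicle release, and ranked 633, then 726, 884 and 403. All of these were found in every library, and m4, m5, m7 and m10 each ranked lowest in replicate 2.

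m8 (chr3R:4052745-4053105) was internally repeated, with a GC content of 26.4% within 100 bp of its summit. In that stretch, 85.0% of the bases with a partner 68 bp further on matched it. m8 ranked 543 in the combined list and 630, 704 and 459 in the libraries. Without gaps, 2 of the 106 IDR members, m8 and m15, reached a self-identity of 70% at an offset from 2 to 80 bp. m1 was just below, with 68.5% at an offset of 55 bp. The strongest members of the other arms were weaker: m41 on X (chrX:23375303-23375526) ranked 2368, and m49 on 2L (chr2L:23075460-23075689), 7191 bp from a start of the splicing factor gene Spf45, ranked 2642. The strongest exonic member, m16 (chr2R:1514180-1514455), lay in the 3′ UTR of Maf1, which encodes a repressor of RNA polymerase III, and ranked 1058, then 937, 1743 and 661. m58 also lay in a 3′ UTR of Maf1 and m53 in a 5′ UTR of Dbp80, an RNA helicase gene, and neither had a summit within 100 bp in replicate 2.

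**Figure D1:**
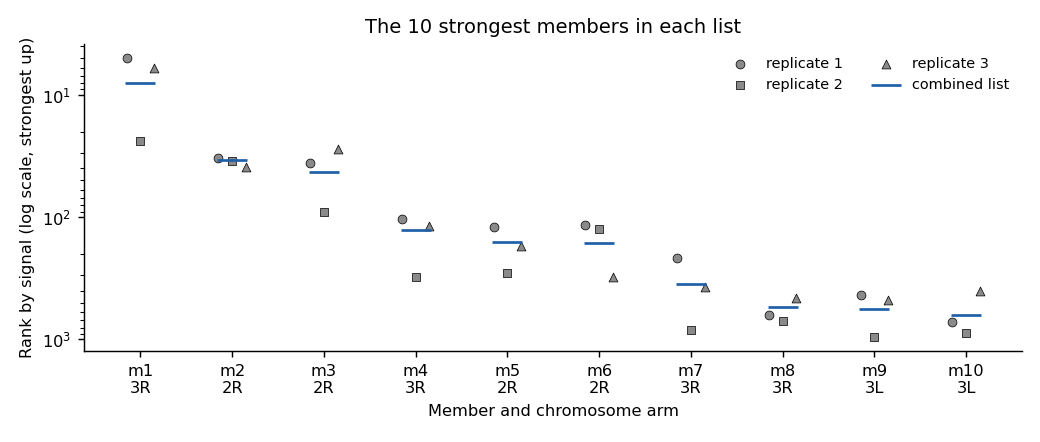
Rank by signal (log axis, strongest at the top) of the 10 strongest members in the combined list (bars) and in replicates 1 to 3 (symbols), with the chromosome arm under each name. m1 ranked 8 in the combined list and between 5 and 24 in the libraries, and m9 had the lowest library rank of the 10, 961 in replicate 2.

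Most members did not recur in every library. A summit within 100 bp was present in all 3 libraries for 423 members, or 17.1%, where the background over all relaxed peaks was 35.9% and the share of arm peaks was 29.6%. It was 19.1% for pericentric peaks inside transposons and 56.8% for pericentric promoter peaks. Taken by library, 63.7% of members were found in replicate 1, 47.5% in replicate 2 and 57.3% in replicate 3. The corresponding shares of arm peaks were 64.4%, 62.0% and 56.1%, so the deficit lay in replicate 2, while the other libraries held members and arm peaks about equally. The mean difference of members minus arm peaks was -4.67 ± 8.54 percentage points (SD, n = 3; exact two-sided sign-flip permutation test, p = 0.75). Without replicate 2, 34.8% of members and 39.0% of arm peaks recurred in both other libraries. Summits of the libraries, extended by 100 bp, covered 4.15%, 3.85% and 3.22% of the pericentric bases where a member could lie. The combined list was made from the same reads as the libraries, so recurrence is not independent of membership.

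Recurrence followed signal closely. All relaxed peaks were split into 10 deciles of signal, from decile 1, the strongest. Members made up 1.69% of decile 1 and 19.3% of decile 8. In decile 1, 97.1% of members and 97.8% of arm peaks were found in all 3 libraries. The shares were 62.7% and 79.9% in decile 3, and 36.6% and 32.1% in decile 5. Arm peaks thus recurred more often in the upper 4 deciles and members slightly more often in deciles 5 to 8, without a test of either. Of the 106 IDR members, 92 were found in all 3 libraries, 13 in a pair of them, and m35, in an intron of Pzl, in replicate 1 alone.

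**Figure D2:**
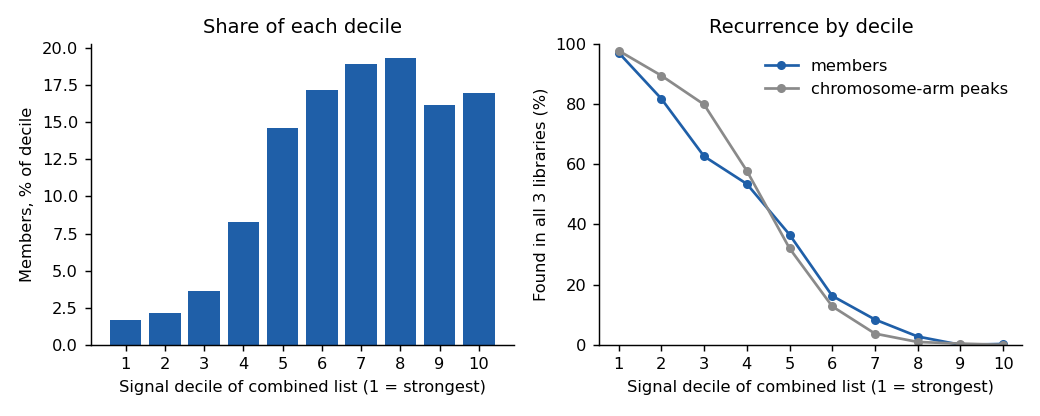
Left, members as a percentage of each decile of the combined list, from the strongest (1) to the weakest (10). Right, percentage of members (blue) and of arm peaks (grey) found in all 3 libraries, by the same deciles, falling from 97.1% and 97.8% to near 0.

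Replicate 2 also gave members a smaller place. Lists held 22598, 30000 and 18934 peaks in replicates 1, 2 and 3, and 13.4%, 9.40% and 12.4% of them were members by the same rule. Replicate 2 thus has a round number of peaks. That may reflect a ceiling set when peaks were called, but the sources used here state none, and its part in that library's lower shares was not tested. Among each library's strongest peaks, as many as the IDR list holds, there were 171, 73 and 164 members.

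On all arms but X, the density of members was highest within 1 Mb of the border, and on 2R, 3L and 3R it fell towards the centromere. Eligible sequence, meaning bases that are known, over 500 bp from a start site and in no transposon record, came to 14.7 Mb inside the borders and 92.2 Mb outside. Members numbered 168 per eligible Mb and arm peaks 111, a ratio of 1.51. The ratio in the libraries' own lists was 1.59, 1.11 and 1.60, with a mean of 1.43 ± 0.276 (SD, n = 3; exact two-sided sign-flip permutation test on the log ratio, p = 0.25, the smallest that 3 libraries allow). All libraries lay above 1, replicate 2 least. For peaks of the IDR list the order was the opposite: 7.23 members and 18.6 arm peaks per eligible Mb, a ratio of 0.389. Among each library's strongest peaks that ratio was 0.577, 0.310 and 0.626. For peaks found in all 3 libraries it was 0.874.

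Arms differed widely. Members per eligible Mb came to 242 for 2L, 217 for 2R, 219 for 3L, 83.1 for 3R and 31.2 for X. Only 3R and X held fewer than their own arm peaks, at 99.5 and 101.1 per Mb. On X the member nearest the border lay 258714 bp inside it, whereas on 2R it lay 227 bp inside, with a signal of 75.4, beside an arm peak 549 bp outside with a signal of 90.7. On 2R, density fell from 710 members per eligible Mb in the first 0.5 Mb from the border to 30.3 in the last stretch. On 3L it fell from 650 to between 98.4 and 231 beyond 1.5 Mb. The first 3 steps of 0.5 Mb gave 244, 284 and 200 on 2L, so the second was highest, and 27.2, 27.0 and 40.1 on X, where the third was highest.

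Splitting 2R, 3L and 3R at 1.5 Mb from the border, a distance chosen after the profile had been seen, gave 512 members per eligible Mb near the border and 145 deeper on 2R. The libraries' own lists gave 555 ± 61.1 and 159 ± 22.1 (SD, n = 3), and the ranges did not overlap. On 3L the combined values were 398 and 171, and on 3R 161 and 48.7. IDR members followed, with 31.7 and 5.18 per eligible Mb on 2R, 17.8 and 5.04 on 3L, and 10.5 and 2.13 on 3R. Soft-masked repeat moved with the position: 25.1% of eligible bases near the border and 38.4% deeper on 2R, 28.3% and 39.0% on 3L, and 32.0% and 44.5% on 3R. Its part in the density was not tested. Density was not smooth, since a stretch of 2R from 4 to 4.5 Mb inside its border rose again to 294 members per eligible Mb.

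**Figure D3:**
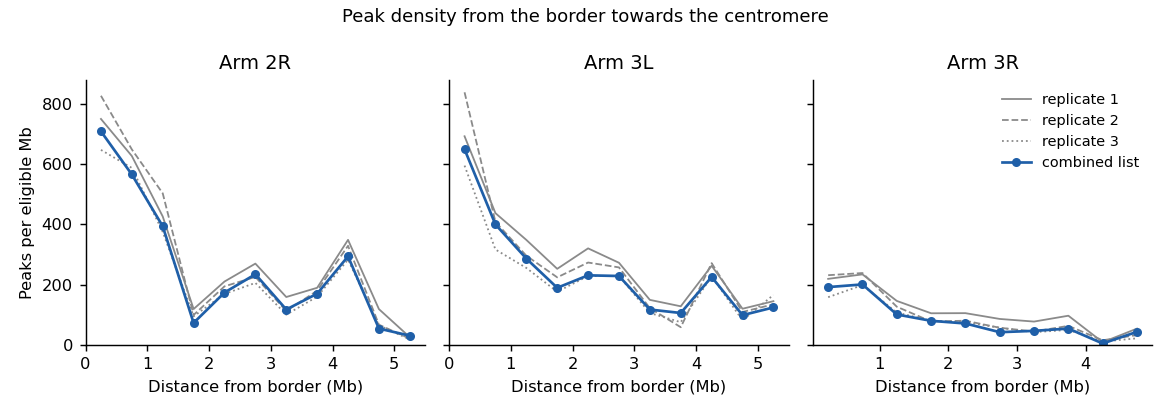
Peaks per eligible Mb in steps of 0.5 Mb from the pericentric border towards the centromere, for the combined list (blue) and replicates 1 to 3 (grey lines). On 2R the combined list fell from 710 to 30.3 and on 3L from 650 to between 98.4 and 231 beyond 1.5 Mb, and the libraries ran close to it.

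Introns held 1216 members, or 49.3%, and intergenic sequence 1016, or 41.2%. Arm peaks were in introns in 58.1% and between genes in 32.5%. The libraries' own lists gave 48.8% ± 0.152 of members in introns against 56.3% ± 1.57 of arm peaks (SD, n = 3), lower in all 3 libraries (exact two-sided sign-flip permutation test, p = 0.25). Coding exons held 153 members, 3′ UTRs 51, noncoding exons 24 and 5′ UTRs 8. Introns with members were long, with a median of 29.6 kb against 10.8 kb for arm peaks. IDR members leaned further towards intergenic sequence, where 56 of 106 lay, or 52.8%.

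The genes with most members were long. The 10 coding genes with most members held 562 of all 2468 members, or 22.8%, where all coding genes held 1409, or 57.1%. These counts were not set against the share of pericentric sequence that the 10 genes span. Myo81F held 92, of which 4 were IDR members, and 159, 105 and 98 in the libraries' own lists. Per length it was sparse, with 0.468 members per 10 kb. Snap25 held 67 members at 2.98 per 10 kb, and 5 of them were in the IDR list. l(3)80Fg held 65, lovit, which encodes a vesicular histamine transporter, 64, and Gprk1, a kinase of G protein-coupled receptors, 53. Dbp80 held 47, CG40006 46, Pzl 42 and CG17684 41. MFS17, of the major facilitator family of transporters, held 45 at 6.37 per 10 kb, the densest of the 10.

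Of 247 coding genes inside the borders, 130 held a member, or 52.6%, and 29 an IDR member. A list of 35 genes, taken to be heterochromatic and chosen with earlier results of these data known, was compared. Of these, 34 matched the annotation by name and 33 lay inside the borders, all but Rpn1. The entry Parp did not match and was left out, although a gene annotated as Parp1 held 21 members. Members lay in 30 of the 33 inside the borders, or 90.9%, and IDR members in 10, with no matching for gene length. Because the list was not chosen independently of these data, its share cannot be read against that of all coding genes. Nipped-B, which loads cohesin, held 15 members and Nipped-A, a subunit of histone acetyltransferase complexes, 21. rl, the MAP kinase of the ERK type, held 20, lt, a protein of vesicle traffic to the lysosome, 6, and none of either was in the IDR list. AGO3, an Argonaute of the piRNA pathway, held 20 with 2 IDR members, and Maf1 held 7 with 4. The listed genes inside the borders with no member were RpL15, su(f) and eIF4B.

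Members lay close together. Of all members, 73.6% had another member within 2 kb. The share with another peak of its own class that near was 53.3% for arm peaks, 73.4% for pericentric peaks inside transposons and 61.3% for pericentric promoter peaks. The libraries gave 76.0% ± 3.12 and 53.4% ± 11.6 (SD, n = 3), higher for members in all 3 (exact permutation p = 0.25). Among the strongest peaks of each library this difference was absent in the mean, at 23.2% ± 7.03 for members and 23.1% ± 0.270 for arm peaks. Members in the combined list were also denser, at 168 per eligible Mb against 111 for arm peaks. The part of density in the spacing was not tested.

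Windows of 100 bp to each side of the summits were compared with other sequence. The median window had 41.3% GC among members and 38.3% among arm peaks, and 71228 tiles of eligible pericentric sequence had a median of 39.3%. Pericentric peaks inside transposons had a median of 43.3%, and of 41.3% in the IDR list, whereas pericentric promoter peaks had 35.8%. IDR members were at 42.8% and arm IDR peaks at 35.8%. The strongest peaks of each library gave 42.1% ± 0.760 and 36.2% ± 0.287 (SD, n = 3). Members were higher in all 3 libraries, by 5.97 percentage points on average (exact permutation p = 0.25). In IDR members the mean GC of windows of 50 bp to each side rose to 42.8% at the summit from 37.8% at 1000 bp to the right, whereas in arm IDR peaks it fell to 35.2% from 41.1%. Members outside the IDR list showed a rise too, to 42.5% from 38.9%.

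Member windows, like those of other pericentric peaks, were poor in soft-masked repeat beside pericentric tiles. The median share was 10.4% of bases, against 23.4% in pericentric tiles and 18.4% at arm peaks. It was 12.9% at pericentric promoter peaks and 14.9% even at pericentric peaks inside annotated transposons, so soft-masking did not mark all repeat. Over 50% of bases were masked in 11.0% of member windows and in 31.8% of tiles. Even so, 22.9% of members and 35.8% of IDR members lay within 1 kb of an annotated transposon, against 5.22% of arm peaks. The share was 38.0% for pericentric promoter peaks, and 38.3% for those in the IDR list.

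The word TATCGATA was frequent at strong members and rare in their surroundings and at arm peaks. It was searched on both strands, as were all words below, and it contains CGATA. The windows of 13 of 106 IDR members held it, or 12.3% (95% exact interval 6.69 to 20.1). It was in 0 of 150 windows 1000 bp to either side, which allows a share of up to 2.00%, and in 0.781% of pericentric tiles. Arm IDR peaks held it in 1.05%, whereas other pericentric IDR peaks held it at shares nearer those of members, in 12.2% of promoter peaks and in 3 of 17 inside transposons. The strongest peaks of each library gave 9.36%, 16.4% and 8.54% for members, and 0.858%, 1.35% and 1.09% for arm peaks. The groups of libraries did not overlap, with a mean of 11.4% ± 4.34 against 1.10% ± 0.248 (SD, n = 3; exact two-sided sign-flip permutation test, p = 0.25). Over all members, weak ones included, the share was 2.07%.

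All 13 members with the palindrome were found in every library, as were 86.8% of all IDR members and 90.3% of arm IDR peaks. Of the 13, 4 lay in introns of Snap25: m10, m28, m39 and m50. They ranked 633, 1716, 2277 and 2759 in the combined list, and m39, with 7 occurrences of CGATA or its complement in its window, held the most of the palindrome-bearing members. m39 is shown above with the palindrome repeated at its left end, and was picked for display after its values had been seen, as was m28. m11, between genes, lay 700 bp from a start of Tim17b, which encodes a mitochondrial import protein. m12 lay in an intron of nrm, which encodes a cell adhesion protein of neurons and muscle, and ranked 795 in the combined list and 935, 957 and 647 in the libraries.

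The shorter word CGATA was in 42.5% of IDR member windows (95% exact interval 32.9 to 52.4). Flanking windows held it in 21.3%, arm IDR peaks in 22.4%, tiles in 23.9% and members outside the IDR list in 26.6%. Other pericentric IDR peaks held it often too: 50.4% of promoter peaks and 6 of 17, or 35.3%, of peaks inside transposons. In the libraries' strongest peaks it was in 39.8% ± 1.15 of members and 22.0% ± 0.316 of arm peaks (SD, n = 3), higher for members in every library (exact permutation p = 0.25). It was centred on the summit: 34.9% of windows of 50 bp to each side of the summit of IDR members held it, and 13.2% and 19.8% of those 100 bp to the left and right. Arm IDR peaks showed 12.2% at the summit, near their values at all other distances. IDR members over 2 kb from any start held CGATA in 45.0% and TATCGATA in 11.2%, and arm IDR peaks at such distances in 22.2% and 0.827%.

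**Figure D4:**
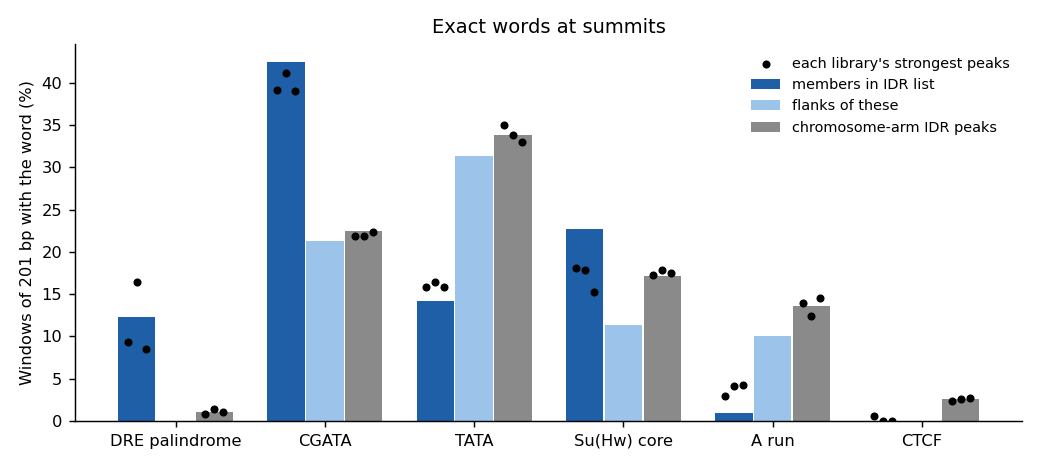
Percentage of windows of 100 bp to each side of the summit with each exact word for members in the IDR list (dark blue), windows 1000 bp to each side of them (light blue) and arm IDR peaks (grey). Black points are the strongest peaks of each library; TATCGATA was in 12.3% of IDR members and 1.05% of arm IDR peaks, and TATAAA in 14.2% and 33.8%.

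**Figure D5:**
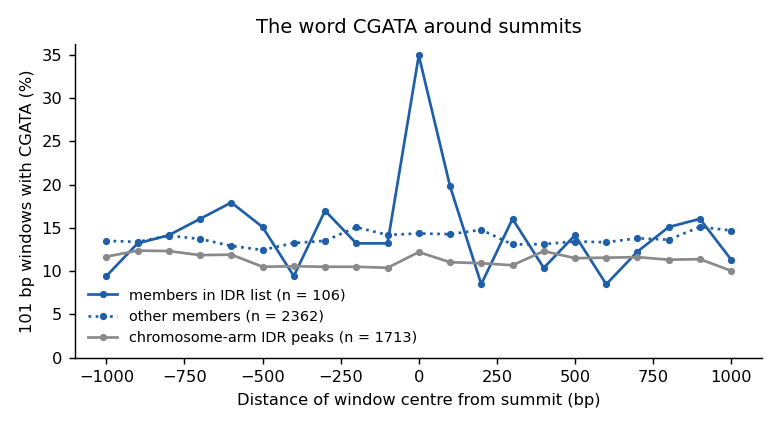
Percentage of windows of 50 bp to each side with CGATA, by distance of the window's centre from the summit, for 106 IDR members, the other 2362 members and 1713 arm IDR peaks. The share reached 34.9% at the summit of IDR members and stayed flat in both other classes.

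Several other words were also more frequent at members than at arm peaks among the strongest peaks of all 3 libraries. GGTCACACT, the site of M1BP, a factor of core promoters, was in 2.96% ± 0.995 and 0.380% ± 0.0669 (SD, n = 3), resting on 4, 3 and 4 member windows. CACGTG, an E-box, was in 4.16% ± 0.0966 and 1.42% ± 0.0851, resting on 7, 3 and 7 member windows. GAGAGAG, bound by GAGA factor, was in 5.66% ± 1.04 and 3.33% ± 1.13, and AATACCA, part of core promoter motif 6, in 5.68% ± 1.42 and 3.72% ± 0.466. GAGAGAG was in 7.55% of IDR members (95% exact interval 3.31 to 14.3) and in 9 of 150 of their flanks, a share within that interval. Pericentric promoter IDR peaks held GGTCACACT in 3.48% and AATACCA in 7.83%, against 1.89% and 7.55% of IDR members. They held CACGTG and GAGAGAG less often, in 2.61% and 1.74%, against 3.77% and 7.55% of IDR members.

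For TATAAA, the A run, the CA run and the CTCF word the order was the opposite. TATAAA, the core of the TATA box, was in 14.2% of IDR members, 31.3% of their flanks and 33.8% of arm IDR peaks. In the libraries' strongest peaks it was in 16.03% ± 0.358 of members and 34.0% ± 1.02 of arm peaks (SD, n = 3), lower in all libraries (exact permutation p = 0.25). Among other pericentric IDR peaks, TATAAA was in 36.5% of promoter peaks and in 2 of 17 inside transposons. A run of A bases (AAAAAAAA) was in 0.943% and 13.6% of IDR members and arm IDR peaks. It was in 12.2% of pericentric promoter IDR peaks and in 5 of 17 inside transposons. A CA run (CACACACA) was in 1.84% ± 0.944 of members and 4.93% ± 0.0526 of arm peaks among the libraries' strongest peaks (SD, n = 3), lower in all 3. The word AGGTGGCGC of the insulator protein CTCF was in 0 of 106 IDR members, which allows a share of up to 2.83%, and in 2.57% of arm IDR peaks, within that limit. Among the libraries' strongest peaks it was in 0.585%, 0% and 0% of members and in 2.31%, 2.64% and 2.73% of arm peaks, lower for members in all 3. Over all members it was in 0.162%, and over all arm peaks in 0.652%. TGCATA, part of the site of the insulator protein Su(Hw), was in 22.6% of IDR members and 17.1% of arm IDR peaks, and in the libraries' strongest peaks in 17.1% ± 1.58 and 17.5% ± 0.262 (SD, n = 3). Tandem runs of the dodeca satellite were in none of the 2468 member windows and in 456 of the 71228 tiles.

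Members often shared sequence with each other, the strong ones included. Windows of 28 of the 106 IDR members, or 26.4% (95% exact interval 18.3 to 35.9), aligned to another IDR member's window that did not overlap their own. At least 75% identity over at least 60 bp was required. Neighbours were not excluded: m2 and m6 are summits of a shared interval, and the intervals of m8 and m77 overlap. Among the 1713 arm IDR peaks, which offer more partners, 9 did so, or 0.525%. At the same setting 37.6% of the 2362 members outside the IDR list matched another of these, with more partners on offer, and 38.9% of all members matched another member. The libraries' strongest peaks gave 21.1%, 24.7% and 20.1% for members and 0.483%, 0.474% and 0.607% for arm peaks. The means were 21.9% ± 2.40 and 0.521% ± 0.0744 (SD, n = 3; exact two-sided sign-flip permutation test, p = 0.25). The 28 IDR members fell into 8 groups, of which 6 spanned more than 1 chromosome arm. Reads from such sequence are hard to place, and how the authors treated them is not given in the sources used here; their part in these peaks was not tested.

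The largest group among IDR members had 6: m7 in Pzl, m37, m76 and m82 in Myo81F, m100 between genes on 3L and m29 on 2R. m7 and m82 shared 159 bp at 98.1% identity, and both windows had 46 near copies elsewhere in the reference. m37 matched m7 at 98.7% over 79 bp, m76 at 81.7% over 180 bp and m100 at 75% over 92 bp. All 6 windows held CGATA. Their ranks in the combined list spread from 351 for m7 to 4927 for m100, and neither m76 nor m82 had a summit within 100 bp in replicate 2.

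The group shown with the palindrome had 3 members. m10 and m50, within Snap25, shared 125 bp at 96.8% identity. m11 on 3R matched m10 at 79.5% over 132 bp and m50 at 91.1% over 112 bp. TATCGATA was kept in all 3, as the sequences above show, and each was found in all libraries, with m11 at ranks 590, 1604 and 545. By the stricter measure of 90% identity over 80% of the window, m10, m11 and m50 had no near copy. At 80% identity over 50% of the window they had 7, 4 and 7.

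A group of 4 on 2R, m20, m61, m67 and m86, shared 73 to 81 bp at 91.9% to 98.7% identity. m61, m67 and m86 had summits at positions 4261626, 4269007 and 4285207, with IntS3, of the Integrator complex, as the nearest coding start, and m20 at 2856854. Another group joined m17 on 2R with m41 and m72 on X and m4 in Myo81F. m17 and m72 had 72 and 68 near copies, and among their copies in transposon records R1A1, an element of ribosomal DNA repeats, was commonest; the windows of m41 and m72 were soft-masked throughout. The remaining groups joined m2, m6, m35 and m45; m3, m56 and m88; m8 and m77, which are neighbours on 3R, m77 with a self-identity of 67.4% at 20 bp; and m23 in AGO3 with m25 in Nipped-A, which shared 173 bp at 82.7% identity.

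The shares of both words were similar when each group was counted once. Taking the strongest member of each, TATCGATA was in 11 of 86 IDR members, or 12.8%, and CGATA in 34, or 39.5%. The share with TGCATA fell from 22.6% to 15.1% by the same step, below that of arm IDR peaks. Among the 78 IDR members in no group, 8 held TATCGATA and 29 CGATA.

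Near copies elsewhere in the reference, with at least 90% identity over at least 80% of the window, were found for 435 members, or 17.6%. For arm peaks the share was 0.195%, and for pericentric peaks inside annotated transposons 27.4%. Of the 435, 103 had 1 copy, 174 had 2 to 9 and 158 had 10 or more. Although no member lay in a transposon record, 208 of the 435 had a copy centred in such a record elsewhere, or 47.8%. The commonest elements were Cr1a for 23 members, 1360 for 15 and GATE for 14, then R1A1, baggins and rooA for 10 each. Near copies were about as frequent in IDR members, 18 of 106. Within the members, 88 were near copies of another member, or 3.57%, in 62 pairs.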

How the data were processed

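The authors deposited narrowPeak lists for dm6: a relaxed list per library, a combined relaxed list and an IDR list. Per the labels, 1 control alignment was shared. For aligner, peak caller, tool versions and IDR threshold, names were not given in the sources used here, and read depth is unknown. The deposited signal is the authors' enrichment value and was used only for ranks within a list. The deposited −log10 q-value was not used for ranking. All 5190 IDR peaks were found in the combined list, where they are the strongest by signal. Lists for dm3 and the control were not analysed here.

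Summits (start plus the deposited offset, column 10) were classed with Ensembl 115 gene models and Release 6 sequence. Near copies came from blastn 2.17.0 (word size 16), shared sequence from blastn with word size 7 (e-value at most 1e-05). Python 3.11.15 and scipy 1.17.1 were used. Peaks are not replicates, so no test was run over them; libraries were compared by exact sign-flip permutation, whose smallest p is 0.25, so that 0.05 cannot be reached. The functions gave the known answer in 13 of 13 tests on simulated data. Named regions were the 10 strongest members, the strongest per arm and the 3 strongest per genomic class. Near-copy pairs and the genes with most members were also named. Members, lists, words and rules were chosen with earlier results of these data known. Alternatives changed the promoter distance, borders, signal threshold, repeat filter, window and library set.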

Additional observations from a re-analysis of the deposited data

How the results depend on the processing

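No paired analysis was possible because there is 1 group. Of 127 alternatives over 12 results, 72 stayed within the spread between libraries and 55 moved. For shares from 1 list the exact interval took the place of that spread, and for counts a limit of 1.5 times. The alternatives recomputed the values of members only, so they do not show whether differences to arm peaks kept their sign. Alternatives for the words and for shared sequence were chosen after seeing the data. The number of members was 629 in the upper 50% of relaxed peaks, 106 in the IDR list and 652 to 860 with 1 library left out and recurrence in both others required. These steps raise signal by construction, and with them the IDR share became 16.9% in the upper 50%, 100% in the IDR list and 12.1% to 14.3% without a library. The share found in all libraries became 50.9% and 86.8% under the stricter lists, 26.4% to 34.8% without a library, 8.95% within 50 bp, 28.7% within 200 bp and 2.39% among each library's strongest peaks. The median signal percentile became 60.5 and 86.1 under the stricter lists and 51.0 to 53.5 without a library. The share within 2 kb of another member became 44.7% and 22.6% under the stricter lists, 69.6% with windows at most 50% masked, 39.0% to 47.2% without a library and 89.2% within 5 kb.

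The intron share moved beyond its small library spread under every alternative: 48.7% and 49.9% with promoter distances of 200 and 1000 bp, 50.8% and 48.3% with borders 0.5 Mb towards and away from the centromere, 43.4% in the upper 50%, 40.6% in the IDR list, 48.4% with less masked windows and 44.7% to 46.7% without a library. The share with near copies was 18.5% at 1000 bp from starts, 20.6% and 15.6% with borders towards and away from the centromere, 14.0% in the upper 50%, 15.4% with less masked windows and 15.8% to 16.3% without a library. At 80% identity over 50% of the window it was 56.4%, so this share depends on how a copy is defined. Median soft-masking was 15.0% in windows of 200 bp to each side and stayed between 10.4% and 10.9% without a library. Median GC was 40.1% in windows of 200 bp to each side, 42.8% in the IDR list and 41.3% to 41.8% without a library. The share of IDR members with TATCGATA ran from 12.5% to 14.1% without a library, and that with CGATA from 40.9% to 43.3% and 55.7% in windows of 200 bp to each side. The share of IDR members with shared sequence ran from 26.0% to 27.2% without a library, and was 17.0% at 90% identity and 14.2% over at least 100 bp. Where a value moved for no reason of construction, the cause was not tested. Read depth is unknown, so no peak has an interval, and 3 libraries cannot reach a p of 0.05.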
